A study of Homo sapiens with 8 samples.

Results

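A set of 9 genes for surface antigens of B cells, several of which are targets of antibodies or cell therapies, was examined for FLI1 occupancy by ChIP-Seq: MS4A1 (CD20), CD22, CD37, CD38, CD27, CD70, CD52, CD24 and FCMR. The rule that chose them used their names and no binding value, but earlier results of these data were known when they were chosen. Of the 9, 8 had a transcription start site (TSS) in the GENCODE annotation used here, among 20136 protein coding genes. CD24 had no TSS under its symbol and was not analysed further. For each gene the best listed peak centred within 3 kb of any of its TSSs was taken, called the promoter peak below, together with the peaks lying inside the gene. A peak passed when its −log10 q, the significance after correction for multiple testing, was at least 3, which is a q value of 0.001.

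The FLI1 libraries came from OCI-Ly1 and VAL, 2 established lines of diffuse large B cell lymphoma of the germinal center B cell (GCB) type, grown without any treatment, with 2 libraries from each line and a rabbit polyclonal antibody to FLI1. Each library pooled several immunoprecipitations, and no FLI1-depleted or isotype control library was among the samples. The list of OCI-Ly1 replicate 1 held 37 intervals, 33 of them longer than 1 Mb, and the intervals over the antigen genes ran from 27.7 to 191 Mb, so it located no binding at a gene and was set aside. The second OCI-Ly1 library, called OCI-Ly1 from here on, and replicates 1 and 2 of VAL, called VAL1 and VAL2, listed 1107379, 237178 and 986629 peaks, of which 5354, 973 and 6474 passed. The read totals were not known, and each value below comes from 1 library and carries no error of its own. The OCI-Ly1 line is therefore represented by 1 library, and a difference between the lines cannot be told apart from a difference between libraries.

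FLI1 is a transcription factor of the ETS family, which binds DNA at sites built around a GGAA core with preferred bases on either side of it, and it acts in blood, endothelial and lymphoid cells. The antigens are the proteins by which B cells receive signals and by which antibodies, antibody conjugates and engineered T cells recognise them. Their surface levels differ between stages of B cell development and between lymphomas, and loss of an antigen is a known route of escape from a drug directed at it.

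Binding passed the threshold at CD37 in both lines and at CD38 in VAL2, and at none of the other 6 genes in any library. The sequences under the passing peaks are printed below because they show how far the sites at these genes carry ETS cores. Each line gives 30 bases of GRCh37 around the core closest to a summit, with the longest motif found there in capitals (CCGGAA where present, otherwise GGAAGT, otherwise the bare GGAA).
CD37 upstream site, chr19:49837226-49837255, plus strand: actgcagaggcaGGAAGTaccgcctgatgc
CD37 site inside the gene, chr19:49842950-49842979, plus strand: cagggcactccgCCGGAAatgcgagccgca
CD38 intronic site, chr4:15780623-15780652, plus strand: ccgcttcagggacGGAAtagaactcgcaga

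In OCI-Ly1, 1 of the 8 antigen genes had a passing promoter peak (12.5%), against 19.0% of all protein coding genes. In VAL1 none of the 8 passed, against 3.14% of protein coding genes. In VAL2 the count was 2 of 8 (25.0%) against 20.9%, and taking either VAL library it was again 2 of 8 against 21.1%. A passing promoter peak in both lines was found for 1 of the 8 genes, against 12.6% of protein coding genes. Without VAL2, 0 of the 8 passed in VAL and 0 in both lines. These shares were near the background, as a single gene moves a share of 8 by 12.5 percentage points.

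The passing peaks inside the genes were the same peaks already counted as promoter peaks, so their counts are not separate evidence. CD37 was the gene with a passing peak inside its body in OCI-Ly1, where 15.9% of protein coding genes had one. No antigen gene had one in VAL1, against 2.60%, and CD37 and CD38 had one in VAL2, against 18.8%. The median −log10 q of the best promoter peak over the 8 genes was 1.11, 0.16 and 1.55 in OCI-Ly1, VAL1 and VAL2, a gene with no listed peak counting as 0. Over all protein coding genes these medians were 1.22, 0.18 and 1.63.

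**Figure D1:**
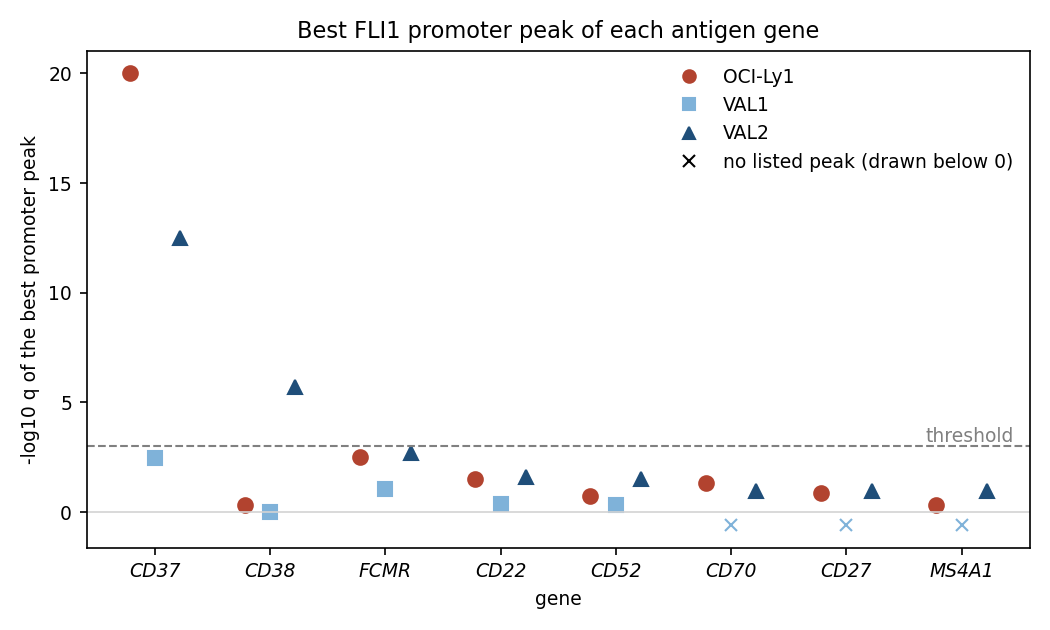
Best FLI1 promoter peak of each antigen gene, as −log10 q on a linear axis, in OCI-Ly1 (circles), VAL1 (squares) and VAL2 (triangles); crosses drawn below 0 mark libraries with no listed peak and the dashed line is the threshold of 3. CD37 in OCI-Ly1 (19.99) and VAL2 (12.46) and CD38 in VAL2 (5.68) lie above the line, and every other point lies under it.

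CD37 encodes a tetraspanin of mature B cells that organises other membrane proteins and is the target of antibodies and antibody conjugates. Its best promoter peak had a −log10 q of 19.99 in OCI-Ly1, 2.46 in VAL1 and 12.46 in VAL2. The fold enrichments of these peaks were 13.6, 4.26 and 10.1. In OCI-Ly1 the peak ranked 328 of all those listed, within the 5354 that passed, and in VAL2 it ranked 861 within 6474. In VAL1 it ranked 1482, outside the 973 that passed. CD37 has 13 TSSs, and of protein coding genes with 11 or more, 29.8%, 4.75% and 32.2% passed in OCI-Ly1, VAL1 and VAL2.

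The 2 VAL libraries thus fell on either side of the threshold at CD37. The number of reads over each summit, worked out from the fold enrichment and the Poisson p value of the peak, was 18 in OCI-Ly1, 13 in VAL1 and 14 in VAL2. The background expected at the same place was 0.393, 2.29 and 0.488 reads. Passing peaks had at least 6, 8 and 6 reads in the 3 libraries, with medians of 8, 17 and 8. The VAL1 count was thus under the median of the passing peaks of VAL1, and the VAL2 count was above that of VAL2. Read totals are unknown, so these reads are not compared as amounts between the libraries.

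The summits of this CD37 peak lay at positions 49842958, 49843017 and 49842976 of chromosome 19 (GRCh37), 18 bp apart between OCI-Ly1 and VAL2 and at most 59 bp apart over the 3 libraries. The site is inside CD37 (chr19:49838428-49846592, plus strand) but far from its main starts, 4305, 4364 and 4323 bp downstream of the first protein coding TSS at 49838653. It counted as a promoter peak through later TSSs, of which the nearest to the summit, at 49843852, belongs to a noncoding CD37 transcript and lay 894, 835 and 876 bp away. Of the 8 CD37 transcripts that cover the summit, 4 have an exon there and 4 an intron. Among the 4 exons, 1 is coding sequence and 2 are untranslated sequence at that base.

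Other genes lie at or near the site. A lncRNA gene on the opposite strand, ENSG00000197813 (chr19:49834782-49843560), has its nearest TSS at 49843539, which was 581, 522 and 563 bp from the summits and closer than any TSS of CD37. TEAD2, which encodes a transcription factor of the TEAD family, has its 3′ end beyond the summits, on the opposite strand, 5199 bp downstream of the first protein coding TSS of CD37. The summits thus lie outside TEAD2. The peaks of OCI-Ly1 and VAL2 reach just past that end, and the peak of VAL1 stops short of it. To which of these genes the binding relates was not tested.

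A weaker site lay upstream of CD37 in all 3 libraries, with −log10 q of 4.94 in OCI-Ly1, 1.95 in VAL1 and 2.82 in VAL2. It rested on 9, 14 and 6 reads, and it passed in OCI-Ly1. The summits were 14 to 65 bp apart and lay 1182, 1233 and 1168 bp upstream of the first TSS of the gene at 49838428. This site is the one that a promoter defined by the first TSS would give. With the first TSS alone, CD37 passed in OCI-Ly1, where 16.1% of protein coding genes did, and neither CD37 nor another antigen gene passed in VAL1, against 2.61%. In VAL2 CD38 passed and CD37 did not, against 17.5% of protein coding genes. The call of CD37 in both lines therefore held for any TSS of the gene and was lost for its first TSS.

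**Figure D2:**
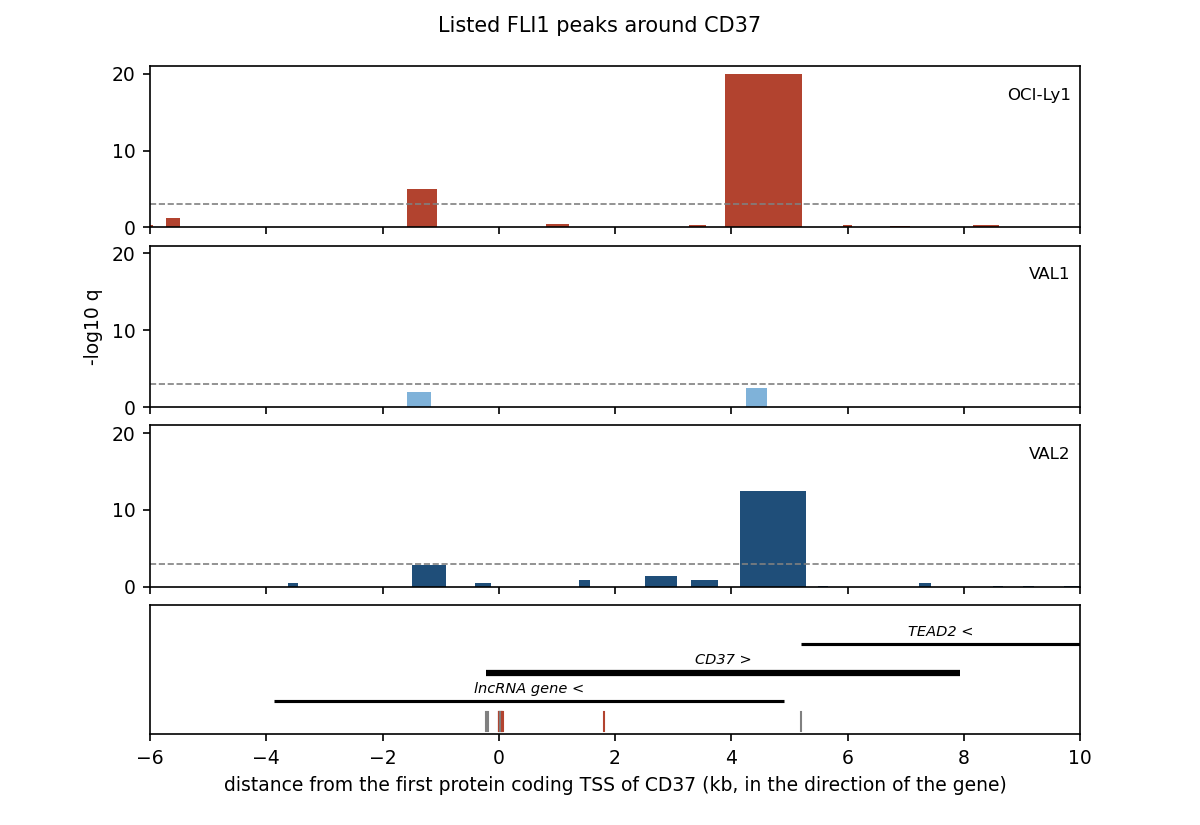
Listed FLI1 peaks around CD37 in the 3 libraries, as bars of the width of the peak and the height of its −log10 q, against the distance in kb from the first protein coding TSS of CD37; the dashed line is the threshold of 3. The lowest panel shows the genes with their direction (> with CD37, < against it) and the TSSs of CD37, protein coding in red and others in grey, with the stronger site 4.3 kb inside the gene and the weaker one upstream of its starts present in each library.

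The 2 sites at CD37 carried different ETS sequences. The site inside the gene held CCGGAA, starting at position 49842962 on the plus strand, 4 bp from the summit in OCI-Ly1 and 9 bp from that in VAL2. In VAL1 the nearest base of the same letters lay 50 bp from the summit. They were thus not wholly within 50 bp and were not counted there. The upstream site held no CCGGAA within 100 bp of a summit, but a GGAAGT at 49837238, which was 3, 43 and 17 bp from the summits. CCGGAA, counted on both strands and within 50 bp of the summit, was present at 37.8%, 38.3% and 30.8% of passing peaks in OCI-Ly1, VAL1 and VAL2, at 1.14%, 1.73% and 1.17% of the listed peaks that did not pass, and in 8.41% of windows of the same length at protein coding TSSs. GGAAGT was present at 27.2%, 32.8% and 24.9% of passing peaks and in 9.49% of those TSS windows. A match of letters is a description of the place and does not show which protein was bound there.

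CD38 encodes an ectoenzyme that consumes NAD and is carried by plasma cells and activated or germinal center B cells, and it is the target of antibodies used in myeloma. Its best promoter peak had a −log10 q of 0.34 in OCI-Ly1, 0.00 in VAL1 and 5.68 in VAL2. The passing peak in VAL2 had a fold enrichment of 6.62, rested on 8 reads over an expected 0.359, and ranked 2484 in its library. The peaks in the other libraries rested on 2 and 5 reads, over expected backgrounds of 0.410 and 2.18. VAL2 is thus high and the other libraries are at or near 0, and the 2 libraries of VAL did not agree. A split between the 2 VAL libraries is common, as 4201 protein coding genes (20.9%) passed in VAL2 and 632 (3.14%) in VAL1. Most genes that passed in VAL2 therefore did not pass in VAL1. By contrast, 2523 protein coding genes passed in both OCI-Ly1 and VAL2. How many genes were high in VAL2 and near 0 in both other libraries was not counted.

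The CD38 summit in VAL2 lay at position 15780591 of chromosome 4, 640 bp downstream of the protein coding TSS at 15779951. All 4 transcripts that cover it have an intron there. The listed peaks that overlapped it had summits 825 bp away in OCI-Ly1, upstream of the gene, and 103 bp away in VAL1. Within 50 bp of the summit in VAL2 there was no CCGGAA and no GGAAGT, and a bare GGAA lay 45 bp off. GGAA alone is common, being present at 76.8% of passing peaks in that library, at 54.4% of those that did not pass and in 65.9% of TSS windows.

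A second place in CD38, 13328 bp downstream of that TSS in an intron, had a −log10 q of 2.26 on 8 reads in VAL1. In VAL2 the peak there had 0.06 on 1 read, with its summit 272 bp away, and OCI-Ly1 had no listed peak. The surroundings of CD38 held little else. The passing peak closest to the gene in OCI-Ly1 was 4240 kb away and that in VAL1 was 13500 kb away.

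FCMR encodes the Fc receptor for IgM, through which B cells bind soluble IgM. It came closest to the threshold among the genes that did not pass, with −log10 q of 2.50 in OCI-Ly1, 1.03 in VAL1 and 2.70 in VAL2. These peaks rested on 5, 10 and 6 reads. The OCI-Ly1 value rested on a late noncoding TSS and was 0.34 within 1 kb of a TSS, with protein coding TSSs only or with the first TSS only. The nearest TSS of any gene to that OCI-Ly1 summit was that of RPL13AP8, 165 bp away. The best peaks were 3 different places, with summits 15793, 13892 and 565 bp downstream of the first protein coding TSS, each in an intron of the transcripts that cover it. Neither the place seen in OCI-Ly1 nor that in VAL2 had a listed peak in the other 2 libraries. The place seen in VAL1 did recur in VAL2, as an overlapping peak with its summit at 13796 bp and a −log10 q of 1.18, also under the threshold. The OCI-Ly1 place had 2 GGAA cores within 50 bp of the summit, and the VAL2 place had none within 100 bp.

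**Figure D3:**
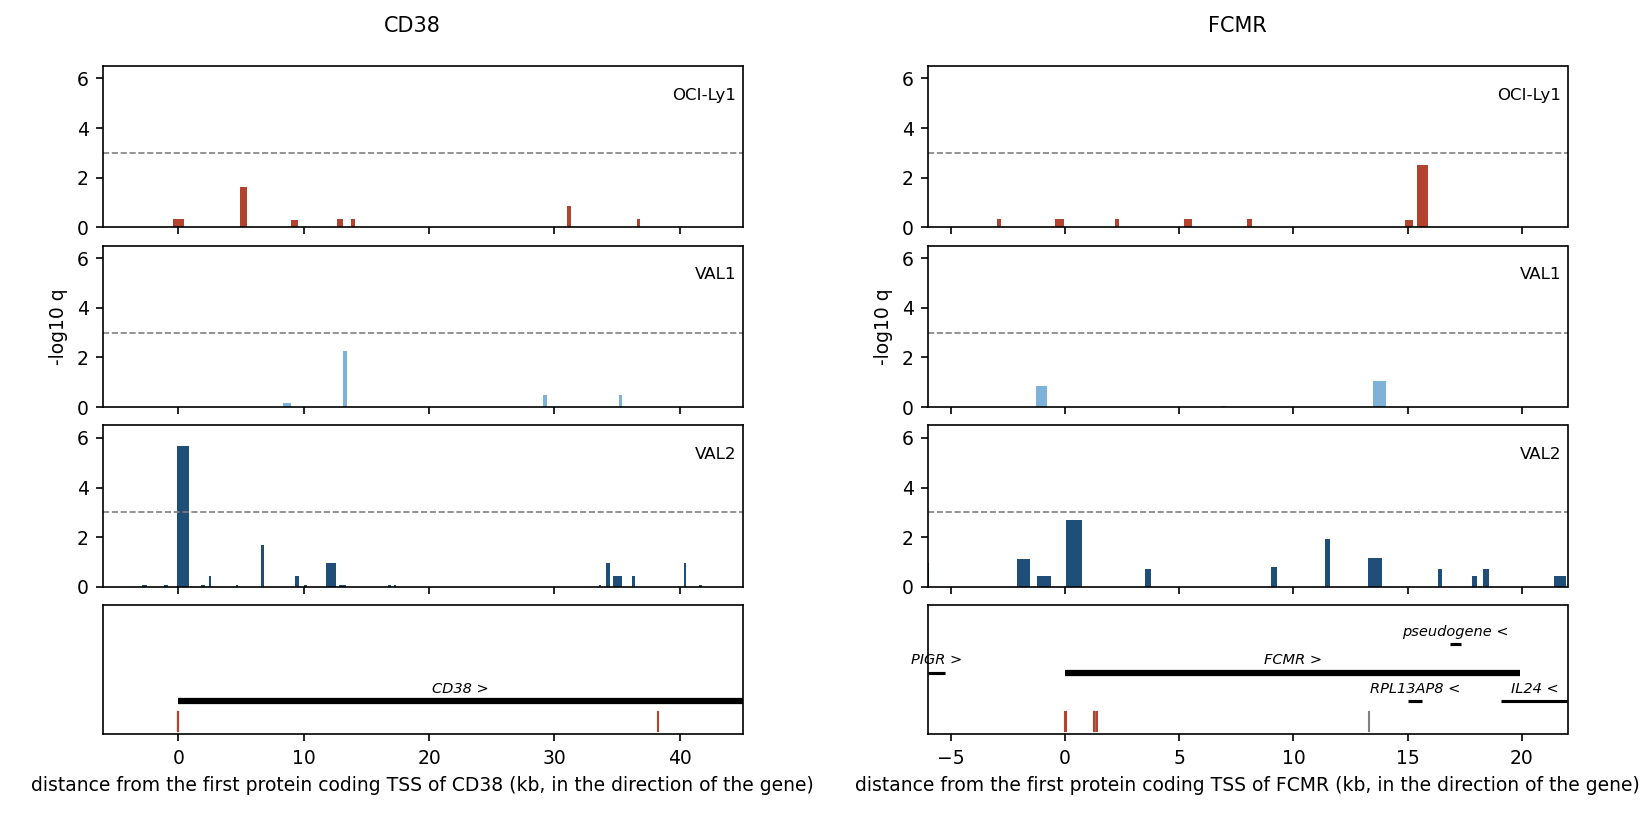
Listed FLI1 peaks around CD38 (left) and FCMR (right) in the 3 libraries, as bars of −log10 q against the distance in kb from the first protein coding TSS of each gene, in the direction of the gene; the dashed line is the threshold of 3, and genes and TSSs are drawn as for CD37. The CD38 peak of VAL2 (5.68) stands at the start of the gene with no bar of like height in the other libraries, and the highest bars at FCMR stand at different places in each library.

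MS4A1 encodes CD20, a membrane protein of B cells from the pre-B stage onward and the target of rituximab. Its best promoter peak had a −log10 q of 0.34 in OCI-Ly1 and 0.95 in VAL2, on 2 and 3 reads, and none was listed in VAL1. In OCI-Ly1, 5 peaks of the promoter windows had that same value. The passing peaks closest to the gene were 436, 163 and 152 kb away in OCI-Ly1, VAL1 and VAL2. MS4A1 thus stood low, at percentiles of 5.41 and 19.6 among protein coding genes in the libraries with a listed peak. Many genes shared these 2 values, up to at least percentiles 19.5 in OCI-Ly1 and 40.5 in VAL2.

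CD22 encodes a sialic acid binding co-receptor that dampens signals of the B cell receptor and is the target of immunoconjugates. It has 16 TSSs and its promoter windows cover 28.2 kb, in which 12, 2 and 19 peaks were listed. The best had −log10 q of 1.51, 0.38 and 1.59, on 4, 8 and 4 reads. The summits of the best peaks were 3.71 kb apart between OCI-Ly1 and VAL2. Among protein coding genes with 11 or more TSSs, as CD22 and CD37 have, 29.8%, 4.75% and 32.2% passed in the 3 libraries. Of those with 1 TSS, 8.34%, 1.32% and 9.33% passed. The cause of this difference was not tested. CD22 did not pass in any library.

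CD52 encodes a short glycoprotein held in the membrane by a lipid anchor, abundant on mature lymphocytes and recognised by alemtuzumab. With 1 TSS and a promoter window of 6 kb it had the narrowest search of the 8 genes. The values were 0.74 in OCI-Ly1, 0.33 in VAL1 and 1.51 in VAL2, as −log10 q, on 4, 6 and 4 reads at 3 different places. The closest passing peaks in OCI-Ly1 and VAL2 were 1 shared place, 28.1 kb from CD52 in UBXN11, with summits at 26616319 and 26616347 of chromosome 1 and −log10 q of 5.27 and 6.15. In VAL1 the closest passing peak was 424 kb away, at ARID1A.

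CD27 and CD70 are a receptor and its ligand, of the TNF receptor and TNF families, which pass costimulatory signals between lymphocytes. Neither gene had a listed promoter peak in VAL1. The best CD27 peak had −log10 q of 0.87 in OCI-Ly1 and 0.95 in VAL2, each on 4 reads, with summits 2.89 kb apart. The best CD70 peak had 1.34 and 0.95 in the same libraries, again on 4 reads each, with summits 1.28 kb apart. At CD27 the OCI-Ly1 summit was 88 bp downstream of the TSS, but 4 reads are under the 6 that the weakest passing peak of that library had.

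The closest passing peak to CD27 in VAL2 stood 0.195 kb beyond the end of the gene, with a −log10 q of 3.42, and 129 bp from the TSS of its neighbour TAPBPL, which encodes a protein of antigen presentation. In OCI-Ly1 the closest was 82.9 kb off, at GAPDH. For CD70 the closest passing peaks were 50.3 kb away in OCI-Ly1, near TNFSF9, another TNF family ligand, and 19.3 kb away in VAL2. These neighbours were looked at after the values were seen and were not tested against other genes.

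**Figure D4:**
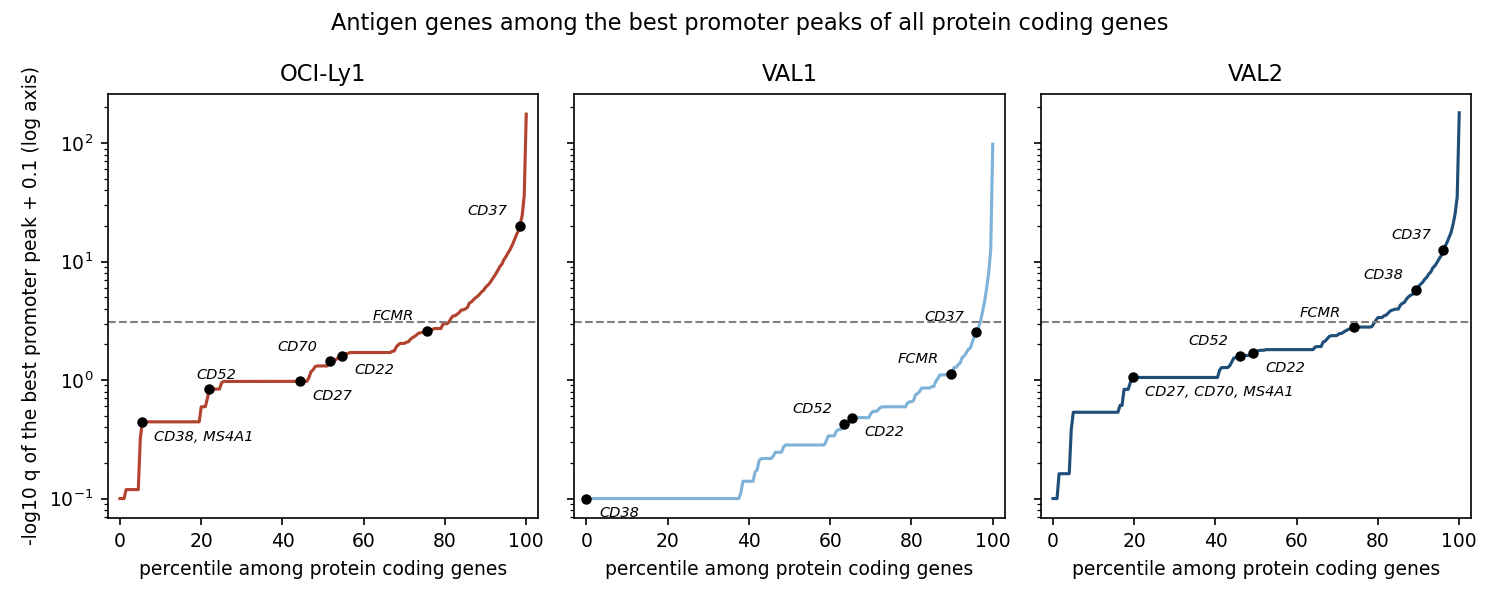
The best promoter peak of every protein coding gene (line), as −log10 q plus 0.1 on a log axis, against its percentile in each library, with the antigen genes marked as points and the threshold as a dashed line; genes with no listed promoter peak in VAL1 (MS4A1, CD27 and CD70) are not drawn there. CD37 stands at percentiles 98.4, 96.0 and 96.1, CD38 is high in VAL2 alone (89.3), and the other points lie under the threshold along the line.

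Among all protein coding genes CD37 stood at percentiles of 98.4, 96.0 and 96.1, so its place was high also in VAL1, where it did not pass. CD38 stood at 5.41, 0 and 89.3, and FCMR at 75.5, 89.7 and 74.0. Low values were shared by many genes, and a percentile counts only the genes below. The CD38 value of OCI-Ly1 was shared up to at least percentile 19.5, and that of VAL1 up to at least 37.5. The remaining genes ranged from 5.41 to 54.7 in OCI-Ly1 and from 19.6 to 49.2 in VAL2. In each of the 8 genes the value of VAL2 was above that of VAL1, 3 of them having no listed peak in the latter. This is a difference of the libraries as a whole, not a trait of these genes. The median over all protein coding genes was 1.63 in VAL2 and 0.18 in VAL1.

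Whether the best peaks of the lines stood at the same place was also read. Of the 8 antigen genes, 1 (CD37) had its best promoter summits of OCI-Ly1 and VAL2 within 100 bp of each other. Among protein coding genes that passed in both libraries 80.8% did, among those that passed in 1 of the 2 30.6% did, and among those that passed in neither 9.03% did. The other 7 antigen genes had summits from 0.825 to 15.2 kb apart. CCGGAA stood within 50 bp of the best summit at 1 of 8 genes in OCI-Ly1 and in VAL2, in both cases CD37, and at 0 of the 5 genes with a listed peak in VAL1. No share over the best promoter peaks of all protein coding genes is at hand for these counts, so nothing is read from them.

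Set beside the 9 genes were 50 other surface antigens of B cells and 27 antigens of other lineages with a TSS. Of the other B cell antigens 6 (12%) passed in OCI-Ly1, 1 (2%) in VAL1 and 16 (32.0%) in VAL2. Of the antigens of other lineages 2 (7.41%) passed in OCI-Ly1, namely CD5 (3.11) and EPCAM (3.41), and none in either VAL library. The median −log10 q of the other B cell antigens was 1.24, 0.12 and 1.62, and that of the antigens of other lineages 0.87, 0.04 and 0.95. A gene passed in both lines for 1 of 8, 4 of 50 and 0 of 27 genes, and no difference between these lists was tested.

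The 4 other B cell antigens that passed in both lines give a scale for the CD37 peak. TFRC, the transferrin receptor of dividing cells, had −log10 q of 25.19, 13.90 and 25.54 in OCI-Ly1, VAL1 and VAL2, above CD37 in each. LAIR1, an inhibitory collagen receptor, had 8.29, 0.00 and 11.40. CD72, an inhibitory co-receptor of B cells, had 5.97, 0.12 and 4.23, and CD79A, a signalling chain of the B cell receptor, had 5.39, 0.38 and 3.74. In percentile among protein coding genes, the genes of this list of other B cell antigens most like CD37 were TFRC, CD46 and CD79A, with mean differences of 2.38, 6.70 and 17.8 over the 3 libraries.

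**Figure D5:**
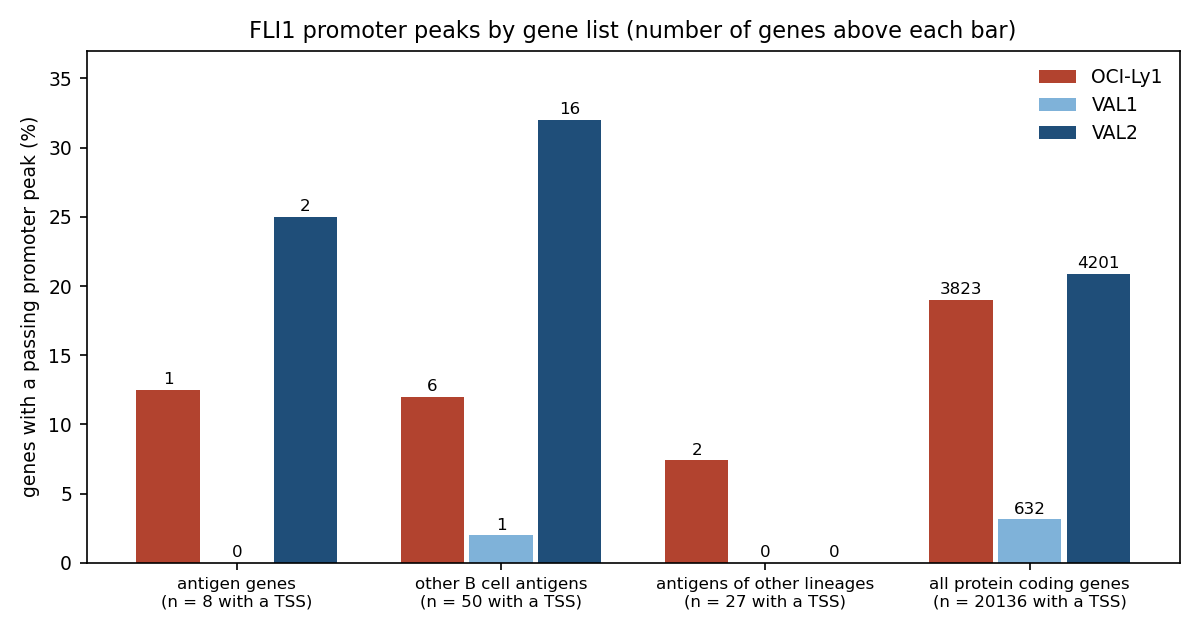
Share of genes with a passing FLI1 promoter peak (%, linear axis from 0) in the 3 libraries, for the antigen genes, the other B cell antigens, the antigens of other lineages and all protein coding genes, with the number of passing genes above each bar. The antigen genes gave 1, 0 and 2 passing genes of 8, shares of 12.5%, 0% and 25.0%, beside 19.0%, 3.14% and 20.9% of all protein coding genes.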

How the data were processed

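FLI1 ChIP-Seq peak lists of OCI-Ly1 and VAL (2 libraries each, 4 FLI1 samples beside 4 input DNA samples, whose files were not used here) were taken as deposited. By the study's methods the authors aligned reads to GRCh37 with bowtie2, kept unique reads of mapping quality at least 10, and called peaks at an FDR of 0.001 with HOMER; the submitters' processing notes name BWA and CASAVA 1.4. The lists have the 10 columns of narrowPeak files, and the settings and control behind them are not given in the sources used here. In the deposited lists the authors gave a fold enrichment, the −log10 of the p value and of the q value, and the summit. The authors' score column, which is the −log10 p value times 10 as a whole number, was not used. The lists reach far below the stated FDR, so peaks were held to −log10 q of at least 3. This is not the study's own peak call, as the paper counts more peaks in each line than passed here. A gene that did not pass here may thus hold a peak in that call.

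Genes and TSSs came from GENCODE release 44 on GRCh37. Promoter peaks were centred within 3 kb of any TSS, and peaks inside a gene were centred between its ends. Percentiles are the share of protein coding genes with a lower value. Reads at a summit were solved from fold enrichment and Poisson p, and this step, the window search and the motif search were tested on simulated data, where they recovered 981 of 981, 300 of 300 and 200 of 200 answers. Motifs were searched on both strands of GRCh37 within 50 bp of a summit. With 1 usable OCI-Ly1 library and no read counts, no test between groups was made, and intervals for counting error could not be given because the depth is unknown. The 9 genes and the lists beside them were chosen with earlier results of these data known. Genes of those lists were named where they passed in OCI-Ly1 replicate 2 and in VAL, or were among the 3 most like the leading antigen gene; CD5 and EPCAM, and the nearest passing peaks, were named after their values were seen. Of 3 RefSeq promoter sequences of CD24 (GRCh38), none of 9 pieces of 100 bases had an exact match in GRCh37. Alternatives were another q threshold, another promoter distance, coding TSSs, equal numbers of peaks, single VAL libraries, a wider motif window and, chosen after seeing the data, the first TSS. Python 3.11.15, pandas 2.3.3, scipy 1.17.1 and pysam 0.24.0 were used.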

Additional observations from a re-analysis of the deposited data

How the results depend on the processing

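No paired analysis was possible because no test was made. Values of single antigen genes were recomputed with other promoter definitions, and 81 of these values stayed on their side of the threshold. The exception was CD37 in VAL2, at 2.82 with the first TSS alone. Within its side, the FCMR value of OCI-Ly1 moved from 2.50 to 0.34 within 1 kb of a TSS, with coding TSSs and with the first TSS, and values of MS4A1 and CD22, all under the threshold, also moved by over 1.5 times. Of the counts, 78 stayed within 1.5 times of the reported one and 24 moved. At a −log10 q of 2, antigen genes with a passing promoter peak numbered 2 in OCI-Ly1 and 1 in VAL1, those with a passing peak inside 2 in both, and those passing in both lines 2; other B cell antigens numbered 14 and 2 in these libraries, and antigens of other lineages 5 in OCI-Ly1 and 2 in VAL2. At a −log10 q of 5, other B cell antigens in VAL2 numbered 8 and antigens of other lineages in OCI-Ly1 numbered 0. With the 973 strongest peaks of each library, antigen genes in VAL2 numbered 1, other B cell antigens 2 in OCI-Ly1 and 3 in VAL2, and antigens of other lineages 0 in OCI-Ly1; within 1 kb of a TSS the last were 1. More protein coding genes of any kind also pass at a −log10 q of 2, and fewer at 5. Their shares at these thresholds, with the 973 strongest peaks or within 1 kb were not counted. A rise or fall of the counts there is thus not read as a trait of the listed genes. Antigen genes passing in VAL ranged from 0 without VAL replicate 2 to 2 without VAL replicate 1, and those in both lines from 0 to 1, so these counts rest on VAL2; with both VAL libraries required each was 0. With the first TSS alone, chosen after seeing the data, they were 1 in VAL2 and 0 in both lines. Within 100 bp, CCGGAA was found at 1 best summit in VAL1. The causes were not tested beyond the constructions named. The read totals are unknown, and a gene without a passing peak is not shown to lack binding.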
